A study of Mus musculus with 2 samples.

Results

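Arterial endothelial cells line the vessels that bring blood into the brain. Here they are 1135 of the 27561 droplet barcodes in a pair of single-cell or single-nucleus RNA libraries: 586 of 12637 in the fluconazole library and 549 of 14924 in the vehicle library. They were chosen by their own counts of unique molecular identifiers (UMIs, 1 per captured RNA molecule). A barcode was kept when it held at least 500 genes and at most 5% of its UMIs from mitochondrially encoded genes. It counted as endothelial with a UMI of at least 4 of the 7 genes Cldn5, Flt1, Pecam1, Ly6c1, Slco1a4, Adgrl4 and Mecom and at most 1 UMI in all of Slc17a7, Cx3cr1, Mog and Kcnj8. It was a member when Bmx, Gkn3, Sema3g and Fbln2 together gave at least 2 UMIs and more than the venous genes Vwf, Lrg1, Il1r1, Ch25h and Slc38a5. These counts chose the members, so differences between the members and other endothelial barcodes are given as a description, with no test.

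Both libraries came from brain, from prefrontal cortex by the design text, of mice labelled Shank3-/-, which lack the postsynaptic scaffold protein Shank3. The first group drank fluconazole, an azole antifungal that inhibits fungal lanosterol demethylase, in its water for 2 weeks. The second group of the same genotype, labelled MOCK, received vehicle. Each treatment is 1 library, the labels give neither the number of mice in it nor their age, and no library from mice with intact Shank3 was analysed here. Differences between the treatments therefore have no replicate check and no p-value, and intervals cover counting error only. A ratio past 1.5-fold is used below as a size, not as a test.

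Arterial endothelium is set apart from veins and capillaries by Notch signalling, in which ligands such as Dll4, Jag1 and Jag2 activate Notch1 and Notch4 and through them Hey transcription factors. It carries ephrin-B2, is coupled by the gap junction proteins Gja4 and Gja5, lies against an elastic lamina and signals to the smooth muscle around it with nitric oxide and endothelins. In the brain, arterial endothelium also takes part in the blood-brain barrier, whose nutrient transporters and efflux pumps are most often studied in capillaries.

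The members held 3352710 UMIs in the fluconazole library and 2955095 UMIs in the vehicle library. Their median depth was 4531.5 and 4231 UMIs per barcode, against 4189 and 4126 in 795 and 867 venous-gated barcodes. In the 1511 and 1735 remaining endothelial barcodes, with at most 1 UMI of each gate set, the median was 2797 and 2521 UMIs. The mitochondrial share of UMIs in members had a median of 2.50% and 2.18%. The doublet caller Scrublet marked 12 and 19 members. The 2 libraries share 45 barcode sequences, of which 0 are members. UMIs were summed over each class of barcodes and are given as UMIs per 1000000 UMIs of that class and library (CPM).

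Members made up 20.2% of endothelial barcodes in the fluconazole library (95% exact binomial interval 18.8 to 21.7) and 17.4% in the vehicle library (16.1 to 18.8), a ratio of 1.16 (1.03 to 1.31). Of all kept barcodes they were 5.29% and 4.08%, a ratio of 1.30 (1.15 to 1.46). Depth differed between the libraries, so each barcode was also thinned to 2000 UMIs, with 1641 and 2452 shallower barcodes left out. Members were then 16.7% and 14.3% of endothelial barcodes, a ratio of 1.17 (1.02 to 1.36). The ratio therefore kept its side at matched depth. Gkn3, a gate gene, also stood higher in fluconazole members (below), so the share and the level of a gate gene cannot be told apart here. A difference between 2 dissections cannot be told apart from one between treatments either.

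Members differed among themselves in how strongly they carried the gate genes. The median member held 6 gate UMIs in both libraries, with quartiles of 3 and 15 and a highest value of 169 in fluconazole members, and quartiles of 3 and 13 and a highest value of 212 in vehicle members. All 4 gate genes were seen in 132 fluconazole members and 110 vehicle members, and a single one in 93 and 94. Just inside the threshold stood 96 and 118 members with exactly 2 gate UMIs. Just outside stood 282 and 309 endothelial barcodes with 1 gate UMI, and 20 and 20 with at least 2 that had no fewer venous UMIs. A further 135 and 95 barcodes met the rest of the rule but held 2 or more UMIs of the 4 excluding genes.

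The label held against genes outside the rule. Alpl, the tissue-nonspecific alkaline phosphatase that is histochemically prominent in arterioles, was given as a marker but was not in the gate. It stood at 305 CPM in fluconazole members and 328 CPM in vehicle members. In venous-gated barcodes it stood at 9.51 and 20.4 CPM and in remaining endothelial barcodes at 50.5 and 64.6 CPM. An Alpl UMI was present in 67.1% and 66.7% of members. At a similar median depth, 5.03% and 7.27% of venous-gated barcodes had one.

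The 4 gate genes themselves were high in members by construction. Gkn3, a secreted gastrokine known as an arterial endothelial gene in the mouse brain, stood at 1597 CPM in fluconazole members and 1328 CPM in vehicle members. Bmx, a Tec-family tyrosine kinase of arterial endothelium, stood at 289 and 259 CPM. Sema3g, a secreted semaphorin, stood at 258 and 250.4 CPM, and the matrix protein gene Fbln2 at 192 and 221 CPM. Between the treatments the log2 ratio of fluconazole over vehicle was 0.27 for Gkn3 (95% interval 0.21 to 0.33), 0.16 for Bmx (95% interval 0.02 to 0.30), 0.04 for Sema3g (95% interval -0.10 to 0.19) and -0.20 for Fbln2 (95% interval -0.36 to -0.04). All 4 ratios were under 1.5-fold.

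Outside the gate, the genes with the largest ratio of members over remaining endothelial barcodes in the library where it was smaller were Fbln5, Cytl1, Hbb-y, Mgp, Eln, Nos1, Syt15, Igfbp3, Vegfc, Egfl8, Vcam1 and Col18a1. Mgp, matrix Gla protein, an inhibitor of vessel calcification, stood at 1672 and 1108 CPM in fluconazole and vehicle members, against 49.1 and 43.6 CPM in remaining endothelial barcodes. Eln, elastin, stood at 239 and 214 CPM against 9.48 and 9.29 CPM. Fbln5, which organises elastin into fibres, stood at 95.1 and 135 CPM against 2.32 and 3.39 CPM.

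These genes were not spread evenly over members. A UMI of Fbln5 was present in 77 of 586 fluconazole members and 98 of 549 vehicle members, one of Mgp in 329 and 254, and one of Cytl1, which encodes a small secreted protein, in 31 and 30. Cytl1 also had 25.4% and 28.3% of its UMIs in a single member. Hbb-y, an embryonic globin gene, had 53 and 50 UMIs in 21 and 21 members, with 26.4% and 26% of them in a single member. It stood at 15.8 and 16.9 CPM in members, against 0.19 and 0.54 CPM in remaining endothelial barcodes. Blood cell markers, largely globins (below), stood at 5582 and 4115 CPM in members and at 6097 and 7513 CPM in remaining endothelial barcodes. The source of the Hbb-y UMIs was not tested.

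Others of the 12 encode signalling and adhesion proteins. Vegfc, a ligand of the lymphatic receptor Flt4, stood at 335 and 448 CPM in fluconazole and vehicle members, against 13.5 and 32.0 CPM in remaining endothelial barcodes. Igfbp3, which binds insulin-like growth factors, stood at 130.0 and 92.0 CPM against 2.32 and 6.25 CPM. Nos1, best known as the neuronal nitric oxide synthase, stood at 71.3 and 53.1 CPM against 2.51 and 2.32 CPM. Vcam1, an adhesion receptor for leukocytes, was no arterial feature by level. It stood at 176 and 252 CPM in members and at 320.0 and 319 CPM in venous-gated barcodes, and was low in the remaining ones at 13.2 and 10.9 CPM.

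The lower genes included some that were low in members against both other endothelial classes. Car4, a membrane-anchored carbonic anhydrase of brain capillaries, stood at 82.6 and 106 CPM in members, against 707 and 679 CPM in remaining endothelial barcodes. In venous-gated barcodes Car4 stood at 947 and 949 CPM. Ctla2a, a cysteine protease inhibitor, stood at 166 and 205 CPM against 1008 and 931 CPM, with 1180 and 1158 CPM in venous-gated barcodes. Cd74, the invariant chain of MHC class II, stood at 1.79 and 4.40 CPM against 23.2 and 31.6 CPM. After thinning each barcode to 2000 UMIs, the log2 ratio of Cd74 nearer 0 was -0.60, against -2.85 before it, while Car4 stood at -3.37 and Ctla2a at -2.45. The other 5 lower genes, Sycp2, Zfp804b, Adcy8, Kcnc2 and Trhde, had UMIs in 8 to 25 members of a library. A single fluconazole member held 50% of the Kcnc2 UMIs, a single vehicle member held 38.5% of the Adcy8 UMIs, and after thinning the Adcy8 ratio nearer 0 was -0.02. Neuron markers stood at 299 and 503 CPM in members and at 767 and 1274 CPM in remaining endothelial barcodes, and their part in these ratios was not tested.

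**Figure D1:**
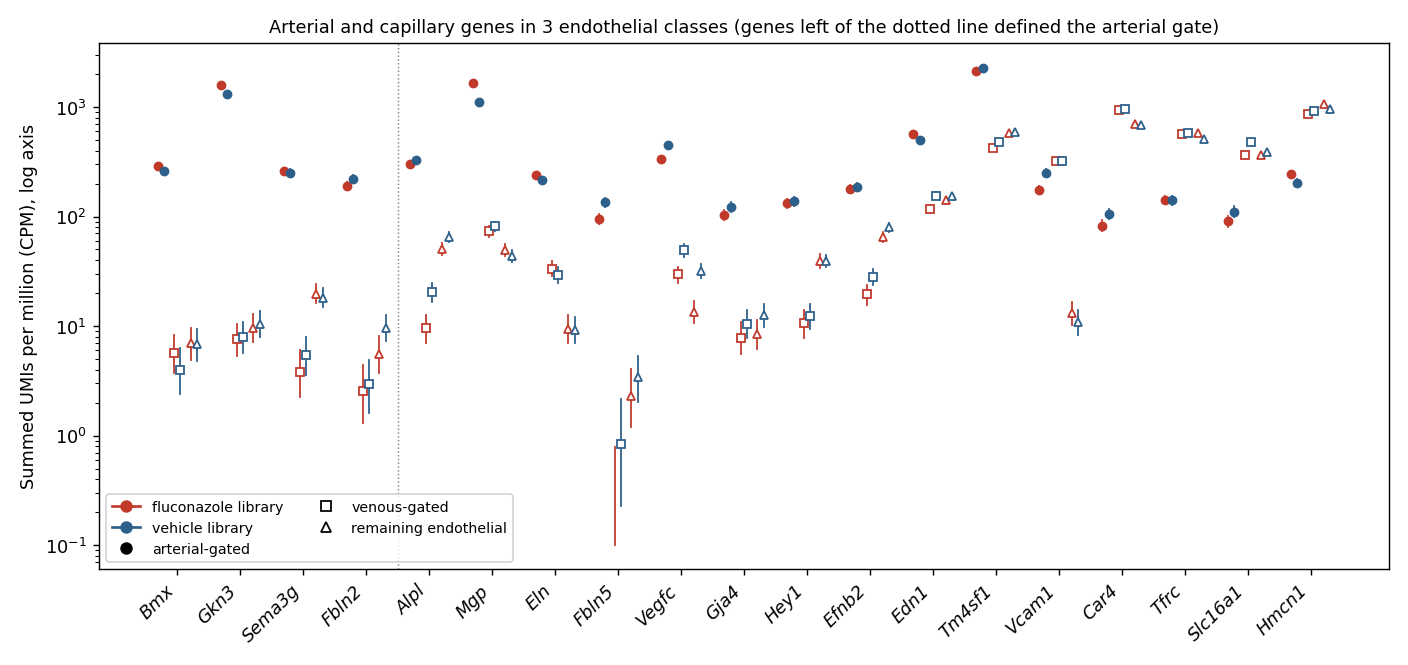
Summed level of 19 genes (CPM, log axis) in arterial-gated (filled circles), venous-gated (squares) and remaining endothelial barcodes (triangles) of the fluconazole library (red) and the vehicle library (blue). Vertical lines are exact 95% Poisson intervals, a line without a point marks a gene with no UMI in that class, and levels should be compared within a gene only. Alpl, outside the gate, stood at 305 and 328 CPM in members, above both other classes, while Car4 at 82.6 and 106 CPM was below both.

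Of the 10407 genes measured (50 or more UMIs in members, both libraries together), 3.66% were at least 2-fold higher and 4.42% at least 2-fold lower in members than in remaining endothelial barcodes in both libraries. Of 30 arterial markers outside the gate, 20 were at least 2-fold higher, with a median log2 ratio of 1.54 and 1.43, against 0.00 and 0.02 over all genes. Tm4sf1, a membrane protein of arterial endothelium, stood at 2131 and 2252 CPM in members and at 577 and 595 CPM in remaining endothelial barcodes. Efnb2, which encodes ephrin-B2, stood at 178 and 186 CPM against 65.4 and 79.8 CPM. Of 21 measured genes of elastic fibres and basement membrane, which include the arterial markers Mgp, Eln and Fbln5, 6 were at least 2-fold higher. Of 12 capillary markers, 5 were at least 2-fold lower in members.

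The Notch pathway had 8 of 27 measured genes at least 2-fold higher in members and 0 lower. This count is not separate from that of the arterial markers, which share Efnb2, Hey1, Dll4, Jag1, Jag2, Notch1 and Notch4 with it. Notch3 is also on the pericyte list (below). Hey1, a transcriptional target of Notch, stood at 132 and 138 CPM in members, against 39.3 and 39.3 CPM in remaining endothelial barcodes and 10.6 and 12.4 CPM in venous-gated ones. The ligand gene Jag1 stood at 103 and 108 CPM against 33.3 and 31.1 CPM in remaining endothelial barcodes, and Dll4 at 140.2 and 159 CPM against 74.5 and 68.0 CPM. The receptor gene Notch1 differed by less, at 282 and 298 CPM against 160.0 and 149.8 CPM.

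Of 19 measured vasoactive genes, which include the arterial markers Edn1 and Edn3, 7 were at least 2-fold higher in members than in remaining endothelial barcodes and 0 lower. The list, summed over the genes measured in each class, was about as high in venous-gated barcodes. It stood at 3948 and 3747 CPM in members, 3896 and 3983 CPM in venous-gated and 3146 and 2992 CPM in remaining endothelial barcodes. Edn1, the endothelin-1 precursor, stood at 571 and 505 CPM in members, against 140.2 and 154 CPM in remaining endothelial barcodes. Edn3, which encodes another endothelin, stood at 220.1 and 194 CPM against 40.6 and 41.4 CPM. Nos3, the endothelial nitric oxide synthase, differed little, at 211 and 219 CPM against 159.8 and 161 CPM. Of 10 genes of caveolae, the membrane pits that are frequent in brain arteriolar endothelium, 3 were at least 2-fold higher. Their sum stood at 2047 and 1910 CPM in members, 1593 and 1599 CPM in venous-gated and 1175.5 and 1012 CPM in remaining endothelial barcodes. Of 25 barrier transport genes, 6 were at least 2-fold lower. Slc16a1, a monocarboxylate carrier, stood at 90.1 and 111 CPM in members, against 363 and 387 CPM in remaining endothelial barcodes. The transferrin receptor gene Tfrc stood at 142 and 140.4 CPM against 573 and 506 CPM, whereas the glucose carrier gene Slc2a1 stood at 2466 and 2143 CPM against 1855 and 1519.5 CPM.

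Mural cell genes stood beside these. All 9 measured smooth muscle markers and 7 of 9 pericyte markers were also at least 2-fold higher in members than in remaining endothelial barcodes. The summed smooth muscle list stood at 1222 and 1563 CPM in fluconazole and vehicle members, against 294 and 352 CPM in remaining endothelial barcodes. No UMI of Acta2, Tagln, Myh11 and Myl9 was seen in 349 of 586 and 292 of 549 members. With at most 1 such UMI per barcode, the smaller of the 2 log2 ratios over remaining endothelial barcodes was 4.92 for Mgp, 4.54 for Eln, 5.57 for Fbln5 and 2.32 for Alpl, against 4.67, 4.52, 5.31 and 2.34 over all members. These 4 differences were about as large in members with at most 1 UMI of those smooth muscle genes. Pericyte markers, at 2267 and 1841 CPM in members, were not part of that limit, and their part was not tested.

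The sequences just before the start of 3 genes with arterial levels are shown because arterial identity is tied to Notch, whose DNA-binding partner RBPJ reads a TGGGAA core. They are the 250 bases upstream of a RefSeq transcript start on GRCm38.p6, each on its own strand, for the gate genes Gkn3 (chr6:87388936-87389185, minus strand) and Bmx (chrX:164258194-164258443, minus strand) and for Fbln5 (chr12:101819120-101819369, minus strand). Capitals mark TGGGAA on either strand.
Gkn3: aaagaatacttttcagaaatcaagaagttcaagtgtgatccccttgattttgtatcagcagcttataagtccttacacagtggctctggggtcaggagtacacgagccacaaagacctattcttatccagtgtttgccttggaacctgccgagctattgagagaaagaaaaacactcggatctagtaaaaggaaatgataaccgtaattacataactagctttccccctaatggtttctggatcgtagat
Bmx: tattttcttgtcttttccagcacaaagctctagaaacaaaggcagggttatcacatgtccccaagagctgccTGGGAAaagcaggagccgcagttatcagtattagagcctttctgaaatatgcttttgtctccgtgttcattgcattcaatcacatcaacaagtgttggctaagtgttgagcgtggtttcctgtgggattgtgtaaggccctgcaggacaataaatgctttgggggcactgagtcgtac
Fbln5: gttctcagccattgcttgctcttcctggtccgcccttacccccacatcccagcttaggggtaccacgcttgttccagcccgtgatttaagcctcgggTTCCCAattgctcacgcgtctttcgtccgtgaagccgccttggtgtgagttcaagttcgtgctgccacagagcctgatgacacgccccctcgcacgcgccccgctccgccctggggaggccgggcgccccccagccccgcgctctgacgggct
The Bmx window holds the letters once, from 178 to 173 bases before the start, the Fbln5 window once on the opposite strand, from 153 to 148 bases before it, and the Gkn3 window not at all. Fbln5 has a second listed start, whose window does not hold the letters. Over 11 arterial genes with a RefSeq entry, 2 of 13 starts held the letters, the 2 shown here, and 21.6% of all 32851 mouse promoters of this length do. A match is a description of these letters, not a binding site.

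Members were also placed in bins by the number of gate UMIs per barcode, the count that chose them, so the order of the bins is set by the rule. The bins were 0 and 1 gate UMI in remaining endothelial barcodes, then 2, 3 to 5, 6 to 11 and 12 or more in members, with 195 and 157 members in the highest bin. Median depth also went up over the bins, to 6152 and 6779 UMIs in the highest one from 2763 and 2454 in the lowest, so the order is one of depth as well as of arterial genes. CPM divides by depth, and the bins are described with no test.

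Alpl levelled off along this range, with 192 and 229 CPM at 2 gate UMIs, 350.4 and 363 CPM at 6 to 11 and 342 and 369 CPM at 12 or more. The elastic matrix genes kept climbing. Mgp stood at 159 and 341 CPM at 2 gate UMIs and at 2998 and 1918 CPM at 12 or more. Eln stood at 25.3 and 62.8 CPM and at 397 and 345 CPM in those bins. Vcam1 was 22.8 and 40.4 CPM at 2 gate UMIs and 315 and 455 CPM at 12 or more. Efnb2 and Hey1 changed less across members. Hey1 stood at 93.7 and 96.4 CPM at 2 gate UMIs and at 145 and 168 CPM at 12 or more.

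Gap junction genes separated the ends of the range. Gja4, which encodes connexin 37, stood at 27.8 and 47.1 CPM at 2 gate UMIs and at 161 and 183 CPM at 12 or more. Gja5, connexin 40 of larger arteries, had 41 and 46 UMIs in members, and stood at 20.7 and 31.8 CPM in the highest bin. Genes of the capillary list ran the other way. Hmcn1, a matrix protein of the immunoglobulin superfamily, stood at 509 and 368 CPM at 2 gate UMIs and at 116 and 71.7 CPM at 12 or more. Tfrc stood at 235 and 170.5 CPM and at 82.8 and 66.8 CPM. Car4 was already low at 2 gate UMIs, at 109 and 182 CPM.

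**Figure D2:**
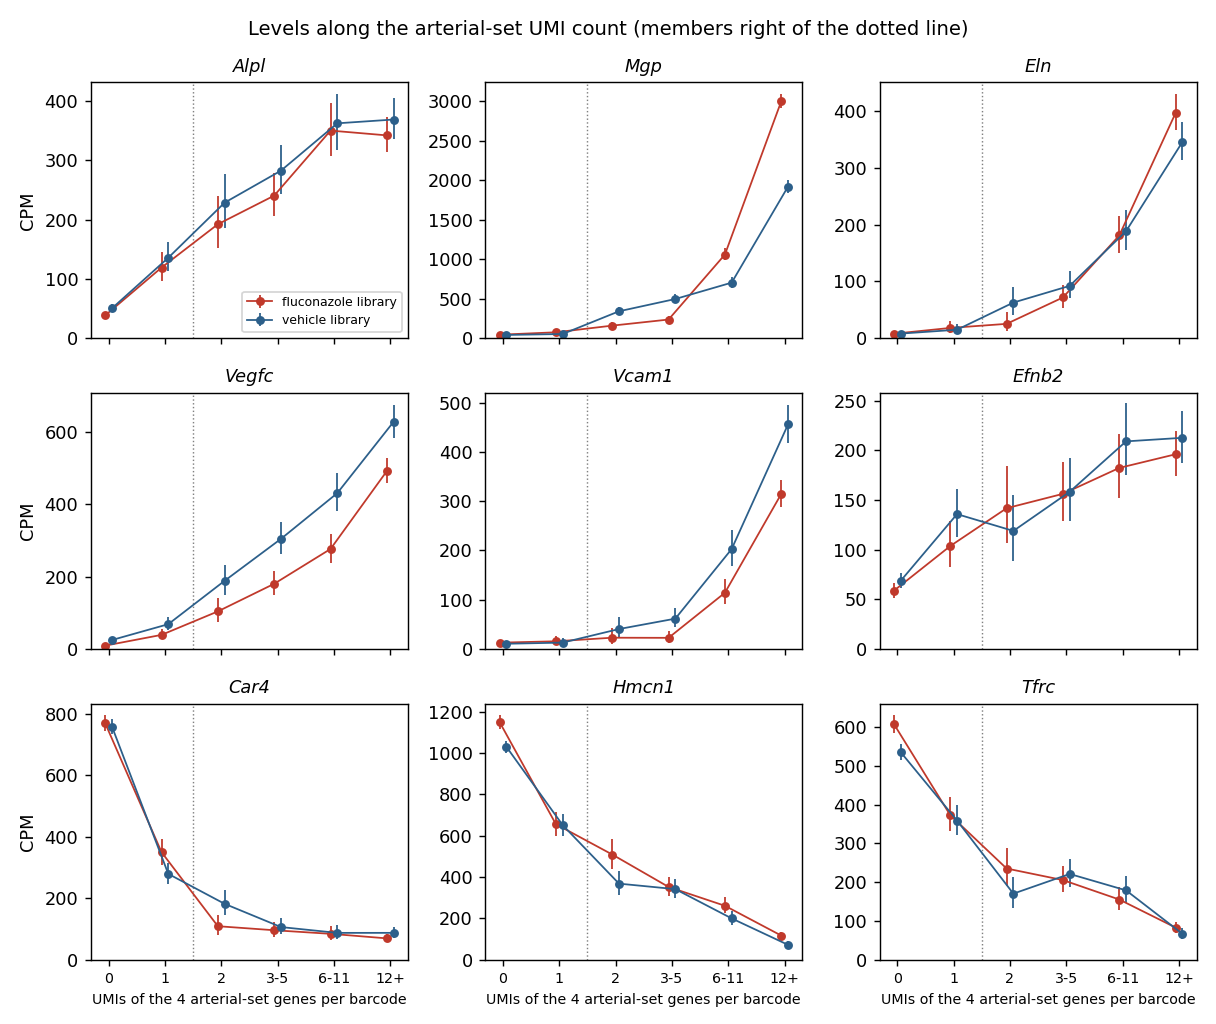
Level (CPM) of 9 genes against the number of UMIs of Bmx, Gkn3, Sema3g and Fbln2 per barcode, for the fluconazole library (red) and the vehicle library (blue), with exact 95% Poisson intervals. Members lie right of the dotted line. Mgp reached 2998 and 1918 CPM in the highest bin, and Hmcn1 stood at 116 and 71.7 CPM there.

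Between the treatments, 277 of 10407 genes (2.66%) were at least 1.5-fold higher and 431 (4.14%) at least 1.5-fold lower in fluconazole members than in vehicle members, 6.8% in either direction, and the median log2 ratio over all genes was -0.01. In any amount, 5042 genes were higher and 5365 lower. The higher genes with the interval farthest from 0 were Zbtb16, Angptl4, Grip1, Galnt15, Eps8, Cmss1, Abcc4, Astn2, Coro2a, Tbc1d4, Fgf13 and Kif23. The lower ones were Pf4, Tmem267, Kcnip4, Gabra2, Hebp1, Olfm5, Slc9a9, Lingo2, Pdzrn3, Npnt, Crispld2 and Kcnq5. A further 17 genes had over 25% of their UMIs in 1 barcode, among them S100a9, Fabp7, Nxph1 and Hbb-bt, and are not ranked. In either direction their interval bound nearest 0 lay at least as far from 0 as that of Kif23, 0.57. The ranked lower genes reached at least -0.89, that of Kcnq5, and some of the 17, such as Lrrtm4 at -0.62, did not.

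Zbtb16, a zinc finger transcription factor induced by glucocorticoids, stood at 193 CPM in fluconazole members and 58.9 CPM in vehicle members, a log2 ratio of 1.71 (95% interval 1.47 to 1.96). A Zbtb16 UMI was present in 312 of 586 and 112 of 549 members. The ratio was much the same in venous-gated barcodes at 1.70 and in remaining endothelial barcodes at 1.60. Angptl4, a secreted inhibitor of lipoprotein lipase, stood at 33.4 and 8.12 CPM, a log2 ratio of 2.04 (95% interval 1.39 to 2.74), with 1.39 in venous-gated and 1.62 in remaining endothelial barcodes.

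Galnt15, which starts mucin-type O-glycosylation, stood at 81.7 and 29.4 CPM in fluconazole and vehicle members, a log2 ratio of 1.47 (95% interval 1.12 to 1.84). Eps8, an actin-binding adaptor, stood at 67.1 and 30.1 CPM (1.16; 95% interval 0.80 to 1.53). Tbc1d4, a Rab GTPase-activating protein that holds back glucose carriers until insulin acts, stood at 289 and 166 CPM (0.80; 95% interval 0.64 to 0.96). All 3 were also higher in the fluconazole library in venous-gated barcodes, by 0.79, 0.80 and 0.66, and in remaining endothelial barcodes, by 1.52, 1.12 and 0.90 on the log2 scale.

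Cmss1 had the most UMIs of the higher genes, 3194 in fluconazole members and 1597 in vehicle members, at 953 and 540.4 CPM (0.82; 95% interval 0.73 to 0.91). Coro2a, a coronin that regulates actin, stood at 81.4 and 41.6 CPM (0.97; 95% interval 0.66 to 1.29). Coro2a stood at 49.5 and 29.3 CPM in venous-gated barcodes and at 10.1 and 7.32 CPM in remaining endothelial barcodes. Kif23, a kinesin of cell division, had 106 and 44 UMIs in 78 and 29 members (1.09; 95% interval 0.57 to 1.63). Cmss1 and Kif23 were also higher in the fluconazole library in venous-gated barcodes, by 0.66 and 0.72 on the log2 scale. In remaining endothelial barcodes they were higher by 0.67 and 1.17.

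The other 3 higher genes are best known from neurons. Grip1, a glutamate receptor scaffold, had 461 UMIs in 52 fluconazole members and 135 in 54 vehicle members, and 1 barcode held 24.1% of the fluconazole UMIs. Its log2 ratio was 1.59 (95% interval 1.31 to 1.88) in members and -0.75 (95% interval -1.03 to -0.47) in venous-gated barcodes, and 0.28 in members after thinning to 2000 UMIs. Astn2, astrotactin 2, had a log2 ratio of 1.12 (95% interval 0.66 to 1.59), and -0.37 in members with at most 5 UMIs of the neuron list, an alternative chosen after seeing the data. Fgf13, an intracellular regulator of sodium channels, had UMIs in 107 and 86 members, with a log2 ratio of 0.90 (95% interval 0.63 to 1.18) and 0.46 under that alternative.

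Among the lower genes, Pf4, platelet factor 4, had 18 UMIs in 13 fluconazole members and 122 in 51 vehicle members, at 5.37 and 41.3 CPM (-2.94; 95% interval -3.75 to -2.22). Pf4 was lower in venous-gated barcodes of the fluconazole library too, with -2.33, and higher in its remaining endothelial barcodes, with 0.83 (95% interval 0.54 to 1.14). Tmem267, a membrane protein of little-known function, stood at 9.54 and 49.1 CPM in members (-2.36; 95% interval -2.96 to -1.80) and at 14.3 and 161 CPM in remaining endothelial barcodes. Hebp1, a haem-binding protein, stood at 21.2 and 82.6 CPM (-1.96; 95% interval -2.37 to -1.58), with -1.94 and -2.21 in the other 2 classes. Hebp1 was thus lower to a similar degree across the endothelial classes, with UMIs in 57 and 159 members.

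Npnt, nephronectin, an integrin ligand of basement membranes, stood at 13.1 and 40.3 CPM in fluconazole and vehicle members (-1.62; 95% interval -2.15 to -1.11). Npnt was an arterial gene by level, at 2.90 and 5.89 CPM in remaining endothelial barcodes, and its log2 ratio over the alternatives tried stayed between -1.80 and -1.32. Crispld2, a secreted glycoprotein, had UMIs in 16 and 24 members (-1.65; 95% interval -2.30 to -1.03) and a log2 ratio of -0.24 in members with no UMI of the excluding genes. Olfm5 had UMIs in 6 and 15 members (-2.00; 95% interval -2.66 to -1.39).

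The remaining 6 lower genes, Kcnip4, Gabra2, Slc9a9, Lingo2, Pdzrn3 and Kcnq5, include neuronal channel and adhesion genes. Kcnip4, a potassium channel interacting protein, stood at 238 and 811 CPM (-1.77; 95% interval -1.88 to -1.65), and 1 barcode held 16.9% and 21.8% of its UMIs. Kcnq5, a voltage-gated potassium channel, stood at 123 and 259 CPM (-1.07; 95% interval -1.24 to -0.89). In members with at most 5 UMIs of the neuron list, the log2 ratio was -0.58 for Kcnip4 and -0.30 for Kcnq5. The neuron list as a whole stood at 299 CPM in fluconazole members and 503 CPM in vehicle members. Over 5 of its UMIs were present in 21 and 25 members, and its part in these ratios beyond that alternative was not tested.

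**Figure D3:**
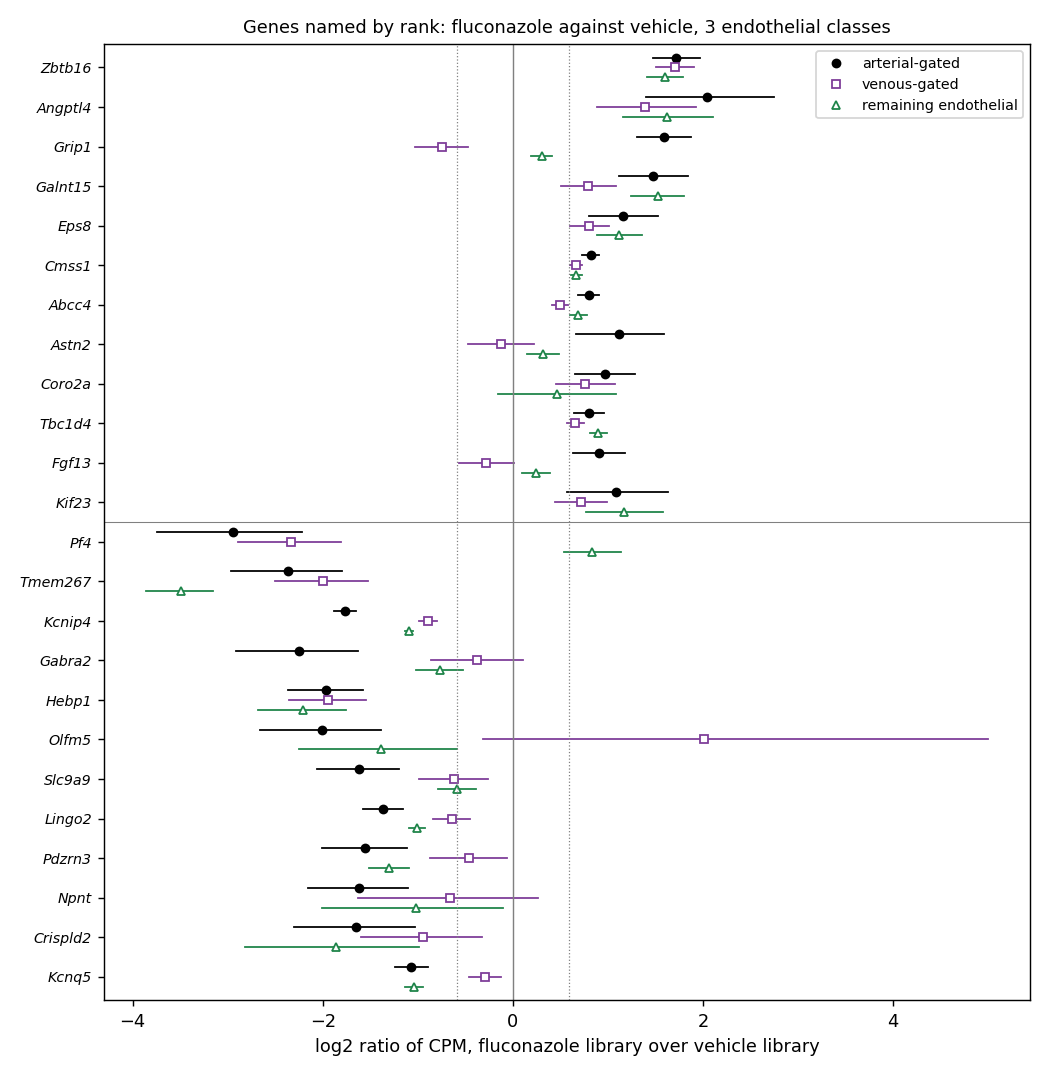
Log2 ratio of CPM, fluconazole library over vehicle library, for the 12 higher and 12 lower genes, in arterial-gated (filled circles), venous-gated (squares) and remaining endothelial barcodes (triangles). Horizontal lines are exact 95% binomial intervals for counting error, drawn to 5 at most, and dotted lines mark 1.5-fold. Zbtb16 lay at 1.71, 1.70 and 1.60 in the 3 classes, whereas Grip1 lay at 1.59, -0.75 and 0.30.

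Glucocorticoid-induced genes, which the steroid-bound receptor Nr3c1 activates, had more genes past 1.5-fold by count than any other pathway list, though not by share. The VEGF and angiopoietin pathway had 2 of 14 measured genes at least 1.5-fold higher and 2 lower, and Angptl4 belongs to both lists. Of 21 measured glucocorticoid-induced genes, 5 were at least 1.5-fold higher in fluconazole members and 0 lower, against 2.66% and 4.14% of all genes. Their median log2 ratio was 0.27, and the summed list stood at 4840 CPM in fluconazole members and 4198 CPM in vehicle members. The 5 were Zbtb16 and Angptl4, described above, Sult1a1, Map3k6 and Fkbp5. Sult1a1, a sulfotransferase, stood at 54.0 and 35.2 CPM (0.62; 95% interval 0.26 to 0.98), and Map3k6, a kinase of the MAP kinase cascade, at 33.4 and 21.0 CPM (0.67; 95% interval 0.21 to 1.14). Fkbp5, a co-chaperone of the receptor, had 38 and 22 UMIs in members and an interval that included 0 (0.61; 95% interval -0.19 to 1.43). Under 1.5-fold, Tsc22d3, the leucine zipper protein GILZ, stood at 276 and 189.5 CPM (0.54; 95% interval 0.39 to 0.70). Nr3c2, the mineralocorticoid receptor gene, stood at 270.2 and 207 CPM (0.39; 95% interval 0.24 to 0.54).

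Sgk1, a kinase, stood at 204 CPM in fluconazole members and 204 CPM in vehicle members (95% interval -0.16 to 0.16). The receptor gene Nr3c1 stood at 289.9 and 295 CPM (-0.03; 95% interval -0.16 to 0.11). The list was not confined to arterial barcodes. In venous-gated barcodes 7 of 22 genes and in remaining endothelial barcodes 8 of 22 were at least 1.5-fold higher, against a background of 2.84% and 2.58% of genes.

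The upstream sequences of a pair of these genes are shown because the receptor binds the palindrome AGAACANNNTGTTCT or a single arm of it, TGTTCT. Windows that hold these letters were picked. They are the 250 bases before the second of the listed starts of Tsc22d3 (chrX:140600523-140600772, minus strand), whose counts were higher in fluconazole members, and before the fifth start of Sgk1 (chr10:21993640-21993889, plus strand), whose counts were not. Capitals mark TGTTCT on either strand, and the palindrome is made of 2 such arms.
Tsc22d3: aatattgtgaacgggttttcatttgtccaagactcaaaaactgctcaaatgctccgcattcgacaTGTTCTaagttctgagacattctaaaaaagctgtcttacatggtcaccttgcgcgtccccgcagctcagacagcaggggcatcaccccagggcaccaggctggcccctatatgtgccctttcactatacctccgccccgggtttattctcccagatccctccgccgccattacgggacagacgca
Sgk1: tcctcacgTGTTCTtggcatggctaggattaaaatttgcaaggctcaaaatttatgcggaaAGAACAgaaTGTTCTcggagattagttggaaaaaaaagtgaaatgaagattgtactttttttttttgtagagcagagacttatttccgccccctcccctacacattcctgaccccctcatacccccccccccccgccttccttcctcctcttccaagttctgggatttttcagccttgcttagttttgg
The whole palindrome stood in the Sgk1 window, from 189 to 175 bases before the start, and in 3 of 32851 promoters in all, while the single arm was present in 16.1% of them. Over Tsc22d3, Sgk1 and Fkbp5, the 3 genes of the list that were looked up and had an entry, 4 of 10 starts held the single arm, in 2 of the genes, and 1 start held the palindrome. Zbtb16 and Angptl4 have no entry in the promoter table used.

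Of 25 measured barrier transport genes, 17 were higher and 8 lower in fluconazole members. Beyond counting error, 8 were higher and 2 lower, against 782 and 951 of all 10407 genes. Past 1.5-fold, 2 were higher and 0 lower, the median log2 ratio was 0.13, and the summed list stood at 11789 CPM in fluconazole members and 10649 CPM in vehicle members. Abcc4, an efflux pump for organic anions, stood at 604 and 348 CPM (0.80; 95% interval 0.69 to 0.91), with UMIs in 474 and 390 members. Slc7a5, the large neutral amino acid carrier, stood at 369 and 266 CPM (0.47; 95% interval 0.34 to 0.60). Its partner chain Slc3a2 stood at 389 and 312 CPM (0.32; 95% interval 0.19 to 0.44).

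The efflux pump genes Abcb1a, which encodes P-glycoprotein, and Abcg2 had log2 ratios of 0.26 (95% interval 0.19 to 0.33) and 0.28 (95% interval 0.18 to 0.37), under 1.5-fold. Slc7a1, the cationic amino acid carrier that takes up arginine, went the other way, at 212 CPM in fluconazole members and 306 CPM in vehicle members (-0.53; 95% interval -0.67 to -0.38). Slc16a1 was also lower, with -0.30 (95% interval -0.53 to -0.07). The same carriers in remaining endothelial barcodes had log2 ratios of 0.69 for Abcc4, 0.52 for Slc7a5 and -0.11 for Slc7a1. Cldn5, the tight junction claudin of the barrier and a gene of the endothelial gate, stood at 3793 and 4439.8 CPM in members (-0.23; 95% interval -0.26 to -0.19). No measured junction gene passed 1.5-fold, 0 of 20.

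Of the insulin-like growth factor (IGF) and insulin pathway, 0 of 27 measured genes were at least 1.5-fold higher and 1 lower, with a median log2 ratio of -0.03. The receptor gene Igf1r had 5437 UMIs in fluconazole members and 3311 in vehicle members, at 1622 and 1120.4 CPM (0.53; 95% interval 0.47 to 0.60), and made up much of the summed list's ratio of 0.17. Igf1r stood at 2326 and 1856 CPM in venous-gated barcodes (0.33) and at 2657 and 1849 CPM in remaining endothelial barcodes (0.52). Insr, the insulin receptor gene, stood at 238 and 199 CPM in members (0.26; 95% interval 0.10 to 0.41). Igfbp3 stood at 0.50 (95% interval 0.28 to 0.72) in members, and Igfbp2, a further binding protein, at -0.94 (95% interval -1.55 to -0.35) with 39 and 66 UMIs.

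**Figure D4:**
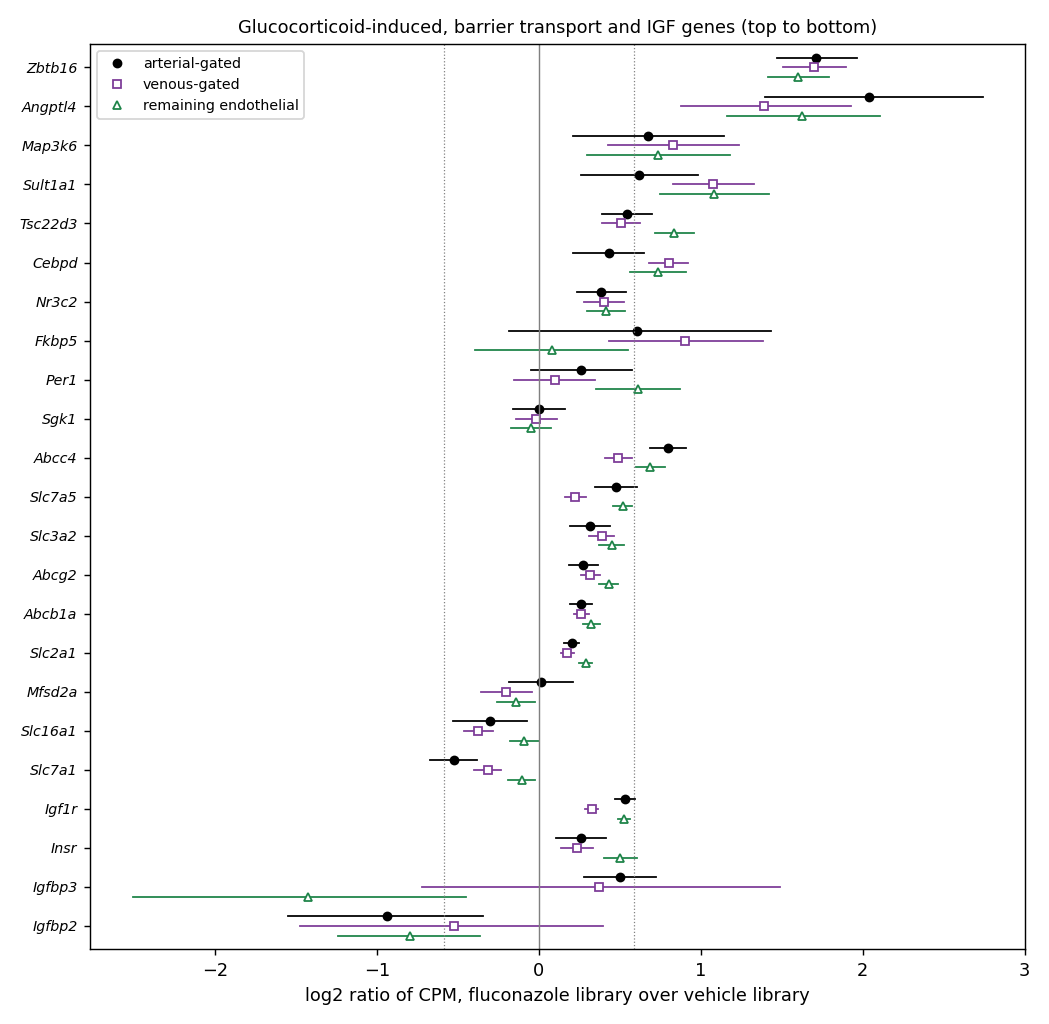
Log2 ratio of CPM, fluconazole library over vehicle library, for glucocorticoid-induced genes (Zbtb16 to Sgk1), barrier transport genes (Abcc4 to Slc7a1) and IGF genes (Igf1r to Igfbp2), with symbols and lines as in the plot of ranked genes. Abcc4 lay at 0.80 and Igf1r at 0.53 in members, while Sgk1 lay at -0.00 and Mfsd2a at 0.01.

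Few arterial markers passed 1.5-fold between the treatments, as did few genes in all (2.66% higher and 4.14% lower). Of 30 arterial markers outside the gate, 1 was at least 1.5-fold higher and 0 lower in fluconazole members. In any amount, 11 were higher and 19 lower, with a median log2 ratio of -0.07. Beyond counting error, 5 were higher and 7 lower, against 782 and 951 of all 10407 genes. The 1 marker past 1.5-fold was Mgp, with 0.59 (95% interval 0.53 to 0.66). The bins of gate UMIs split this ratio. Mgp was lower in fluconazole members at 2 and at 3 to 5 gate UMIs, with 236 against 496 CPM in the second of these bins, and higher at 6 to 11, with 1058 against 703 CPM, and above. Vegfc was lower in fluconazole members in every bin and had a log2 ratio of -0.42 overall (95% interval -0.54 to -0.30). Fbln5 had -0.50 (95% interval -0.72 to -0.29) and Gja4 -0.24 (95% interval -0.46 to -0.03).

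No gene of the Notch pathway passed 1.5-fold, 0 of 27 in each direction. In any amount 20 of them were lower, against 5365 of all 10407 genes, with a median log2 ratio of -0.06. Beyond counting error, 2 were higher and 0 lower, and the summed list had a log2 ratio of -0.01 (95% interval -0.05 to 0.03). Hey1 had -0.06 (95% interval -0.26 to 0.13), Dll4 -0.19 (95% interval -0.37 to 0.00) and Notch1 -0.08 (95% interval -0.21 to 0.05). Of 19 vasoactive genes, 0 passed 1.5-fold. S1pr1, the receptor for sphingosine 1-phosphate, stood at 642 and 499 CPM (0.36; 95% interval 0.27 to 0.46), and Edn1 had 0.18 (95% interval 0.08 to 0.28). Among genes of guidance cues, Plxna2, a semaphorin receptor, stood at 488 and 355 CPM (0.46; 95% interval 0.34 to 0.57), and Slit2, a repellent ligand, had 26 and 69 UMIs (-1.59; 95% interval -2.30 to -0.92).

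Of the 21 measured genes of elastic fibres and basement membrane, 10 were higher and 11 lower in fluconazole members, with a median log2 ratio of -0.11 and 0.05 for the sum. Past 1.5-fold, Mgp was higher, and Ltbp1, a TGF-beta binding protein of the matrix, was lower (-0.70; 95% interval -1.24 to -0.16). Col4a1, a collagen IV chain, stood at 324 and 426 CPM in fluconazole and vehicle members (-0.39; 95% interval -0.51 to -0.28). Sparc, a collagen-binding protein, had -0.32 (95% interval -0.39 to -0.25) and Col18a1 -0.37 (95% interval -0.62 to -0.12). Vcam1 was lower in fluconazole members, at -0.52 (95% interval -0.67 to -0.36), and stood at 0.00 in venous-gated barcodes.

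Other gene groups differed by less than 1.5-fold for most genes, as did all genes, of which 2.66% were higher and 4.14% lower past it. In any amount, 5042 of all 10407 genes were higher and 5365 lower. Of 22 interferon-stimulated genes, 19 were lower in fluconazole members, 2 of them by at least 1.5-fold. The summed list had a log2 ratio of -0.19. In venous-gated and remaining endothelial barcodes 19 and 20 of the 22 were lower, with -0.09 and -0.15 for the sum. In members Ifit2 stood at 24.5 and 56.2 CPM (-1.20; 95% interval -1.60 to -0.81), and Rsad2, the antiviral protein viperin, at 69.8 and 95.8 CPM (-0.46; 95% interval -0.71 to -0.20). Of 14 heat shock genes, 11 were lower and 1 by at least 1.5-fold, with -0.12 for the sum. The 1 gene was Hspa1a, an inducible Hsp70, at 139 and 229 CPM (-0.73; 95% interval -0.90 to -0.55), with -1.32 in venous-gated and -0.88 in remaining endothelial barcodes. Of 13 mitochondrially encoded genes, 12 were higher, with 0.19 for the sum. Cholesterol biosynthesis, the mammalian pathway of the azole target, had 1 of 17 genes at least 1.5-fold higher and 1 lower, with a median of 0.01. The lower gene was Sqle, squalene epoxidase (-1.07; 95% interval -1.93 to -0.25). Cyp51, lanosterol demethylase, had 61 and 69 UMIs in members, at 18.2 and 23.3 CPM (-0.36; 95% interval -0.88 to 0.16), and a difference was not detectable at this depth. Shank3 stood at 73.1 and 78.2 CPM; with a 3′ tag assay and no statement of the deleted part, these counts check nothing about the genotype.

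Markers of other cell types moved between the treatments in members. Smooth muscle markers had a log2 ratio of -0.35 for their sum, and 2 of 9 were at least 1.5-fold lower, against 4.14% of all genes. Their sum had -0.15 in venous-gated and -0.26 in remaining endothelial barcodes. Pericyte markers were higher in 9 of 9 genes in members, against 5042 of all 10407 genes. They stood at 2267 and 1841 CPM in fluconazole and vehicle members, with 0.30 for the sum of measured genes. That sum had 0.005 in venous-gated and 0.40 in remaining endothelial barcodes. Microglia markers were lower in 9 of 9 genes in members, against 5365 of all 10407, at 315 and 468 CPM (-0.57). Their sum had -0.26 in venous-gated and 0.04 in remaining endothelial barcodes. Fibroblast markers stood at 111 and 206 CPM in members (-0.83). Blood cell markers, largely globins, stood at 5582 and 4115 CPM (0.44), and 1 of the 9 genes was at 0 in members. Their sum had -0.95 in venous-gated and -0.30 in remaining endothelial barcodes, and in members it lay between -0.067, with at least 3 gate UMIs, and 0.96, after thinning, under the alternatives tried. Astrocyte, oligodendrocyte and choroid plexus markers stood at 595 and 585, 147 and 163, and 58.2 and 68.4 CPM. Of the 6 choroid plexus genes 4 and 2 were at 0. Microglia markers reached 6261 and 6985 CPM over all kept barcodes, far above their level in members, which the rule sets in part. The excluding genes Cx3cr1, Mog, Slc17a7 and Kcnj8 belong to the microglia, oligodendrocyte, neuron and pericyte lists. The part of these lists in the ratios of single genes was not tested beyond the alternatives given.

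**Figure D5:**
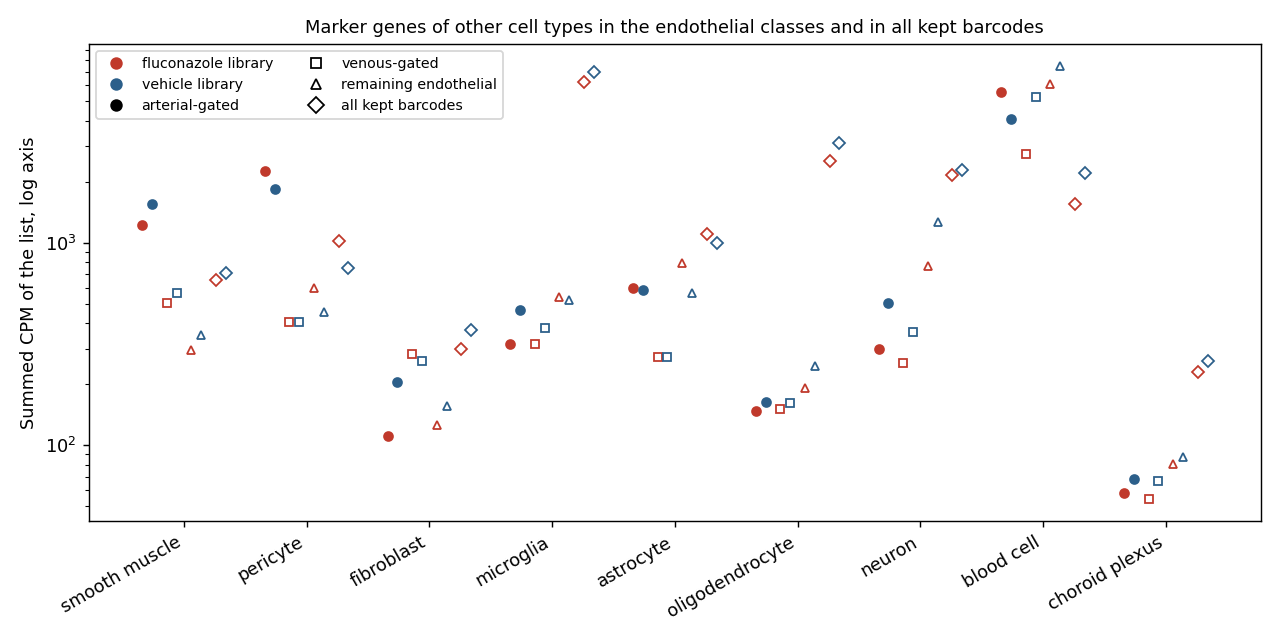
Summed level (CPM, log axis) of marker lists of other cell types in arterial-gated, venous-gated and remaining endothelial barcodes and in all kept barcodes, for the fluconazole library (red) and the vehicle library (blue). Smooth muscle and pericyte lists were highest in arterial-gated barcodes, at 1222 and 1563 CPM and at 2267 and 1841 CPM, while microglia and oligodendrocyte lists were far below their level over all kept barcodes. The excluding genes Cx3cr1 and Mog belong to the microglia and oligodendrocyte lists, so the rule sets this gap in part.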

How the data were processed

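The deposited matrices hold raw UMI counts, written by Cell Ranger 8.0.1 per the file headers and not normalized. The submitters' processing notes list version 9.0.0 of Cell Ranger, and also R 4.0.3, Seurat 4.0.0 and build mm10. The labels' protocol describes nuclei from frozen tissue, the design text fresh tissue with cells and nuclei, so the unit is called a barcode. Intronic reads, if counted, would raise long genes.

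Barcodes were filtered and gated as the report states, UMIs of 33696 gene IDs were summed per class and library, and CPM computed. Intervals are exact (Poisson for CPM, Clopper-Pearson for shares, conditional binomial for log2 ratios), at 95%. Those of log2 ratios were run on simulated Poisson counts, the model they assume, so spread between barcodes was not tested. Doublets were called with Scrublet in scanpy 1.11.5 (517 and 617 barcodes of the fluconazole and vehicle libraries) and kept, with removal as an alternative. A gene counted as measured with 50 or more UMIs in members, both libraries together. Genes ranked between the treatments had at least 100, were ordered by the interval bound nearest 0, and left out mitochondrial, ribosomal protein and model genes and genes with over 25% of UMIs in 1 barcode. Genes ranked between members and remaining endothelial barcodes were ordered by the ratio nearer 0 of the 2 libraries, with at least 100 UMIs in members for the higher genes and at least 100 in remaining endothelial barcodes of each library for the lower, and with no limit on UMIs in 1 barcode. In lists, the 2 to 4 genes with the bound farthest from 0 were named, and others for their known role after their values were seen. The values of 1 gene of the cholesterol biosynthesis list, counted there, are not reported here. The members and all lists were chosen with earlier results of these data known. Promoter sequences are RefSeq's on GRCm38.p6, and 18 of 23 genes looked up had an entry.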

Additional observations from a re-analysis of the deposited data

Results flagged for a closer look

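In 10 of the genes named here the log2 ratio of fluconazole over vehicle lay on one side of 0 in arterial-gated barcodes and on the other in another endothelial class, with the counting interval off 0 in both. The difference between classes was not tested, since each treatment is 1 library. Grip1 had 1.59 in arterial-gated and -0.75 in venous-gated barcodes, with 52 and 54 arterial-gated barcodes of the fluconazole and vehicle libraries holding a UMI, and 0.28 in arterial-gated barcodes after thinning to 2000 UMIs. Pf4 had -2.94 in arterial-gated and 0.83 in remaining endothelial barcodes. Igfbp3 had 0.50 in arterial-gated barcodes, where it stood at 130.0 and 92.0 CPM, and -1.43 in remaining endothelial barcodes, where it stood at 2.32 and 6.25 CPM. Edn1 had 0.18 in arterial-gated and -0.41 in venous-gated barcodes. Cav1, the main protein of caveolae, had 0.13 in arterial-gated and -0.12 in venous-gated barcodes. Ctla2a had -0.30 in arterial-gated and 0.12 in remaining endothelial barcodes. Hmcn1 had 0.26 in arterial-gated and -0.09 in venous-gated barcodes, and Flt1, a gene of the endothelial gate, had 0.067 and -0.09. Hbb-bt, a globin gene, had 0.87 in arterial-gated, -1.13 in venous-gated and -0.15 in remaining endothelial barcodes. Nxph1, a neurexin ligand, had 3.42 in arterial-gated and -0.91 in venous-gated barcodes. Both of these genes had over 25% of their arterial-gated UMIs in 1 barcode in each library.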

How the results depend on the processing

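No paired analysis was possible because each treatment is 1 library. The ratio of shares stayed between 1.15 and 1.24 under 4 alternatives. The count of genes at least 1.5-fold higher in fluconazole members was 455 with an unweighted mean over barcodes, 601 with a minimum of 20 UMIs and 56 with a minimum of 200. The lower count was 270 with at most 1 smooth muscle UMI per barcode, 220 after thinning to 2000 UMIs, 937 with a minimum of 20 and 94 with 200. The share of genes past 1.5-fold moved with the minimum too, to 4.73% higher and 7.38% lower with 20 and to 0.97% and 1.63% with 200. The cause was not tested. With top barcodes left out the counts were 258 and 369, and with at most 5 neuron UMIs 256 and 347, both chosen after seeing the data.

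Of the gene ratios under alternatives, 246 kept their side within counting error, 50 moved and 1 reversed, Astn2, to -0.37 with at most 5 neuron UMIs. Grip1 stood at 0.28 after thinning. Of the list sums, 246 kept, 74 moved and 10 reversed. The immediate early list was -0.0071 without Scrublet calls, -0.022 with few smooth muscle UMIs, -0.022 after thinning, -0.011 with the unweighted mean and -0.0051 with few neuron UMIs. Few smooth muscle UMIs also turned the flow-responsive list to -0.011 and the smooth muscle list to 0.040. The blood cell list was -0.067 with at least 3 gate UMIs, the junction list -0.060 after thinning, and the inflammatory list 0.0018 with no excluding UMI. Of the ratios of members over remaining endothelial barcodes, 81 kept and 18 moved, 12 of them after thinning, where Cd74 stood at -0.60 and Adcy8 at -0.02.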

Other observations

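Genes of the circadian clock differed in both directions. Of 16 measured genes, 12 were higher and 4 lower in fluconazole members, 1 and 2 of them past 1.5-fold, with a median log2 ratio of 0.22. Of all 10407 genes, 5042 were higher and 5365 lower, and 2.66% were higher and 4.14% lower past 1.5-fold. Per3, a repressor of the clock, stood at 45.6 CPM in fluconazole members and 29.1 CPM in vehicle members (0.65; 95% interval 0.26 to 1.05). Dbp, an output transcription factor, stood at 115 and 88.3 CPM (0.38; 95% interval 0.15 to 0.61). Arntl, the activator also called BMAL1, was lower, at 21.2 and 33.8 CPM (-0.68; 95% interval -1.14 to -0.22), and so was the activator gene Npas2 (-1.07; 95% interval -1.58 to -0.58). In remaining endothelial barcodes the log2 ratios were 0.26 for Per3, 0.61 for Dbp and -0.30 for Arntl. The hour at which each brain was taken is not given in the labels used here, and its part was not tested.

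Of 21 measured immediate early genes, 1 was at least 1.5-fold higher in fluconazole members and 0 lower, against 2.66% and 4.14% of all genes. Nr4a3, an orphan nuclear receptor gene, stood at 98.1 and 60.9 CPM (0.69; 95% interval 0.42 to 0.96), and its relative Nr4a2 at 311 and 219.6 CPM (0.50; 95% interval 0.36 to 0.65). Txnip, the thioredoxin-interacting protein that responds to glucose and flow, stood at 257 and 179 CPM (0.52; 95% interval 0.36 to 0.68). The flow-responsive transcription factor genes Klf2 and Klf4 had log2 ratios of -0.06 (95% interval -0.10 to -0.02) and -0.06 (95% interval -0.13 to 0.01). Of 10 genes of caveolae, 8 were higher, against 5042 of all 10407 genes, and 0 passed 1.5-fold. Cav1 stood at 349.9 and 319 CPM (0.13; 95% interval 0.01 to 0.26).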
